A study of Oryzias latipes with 5 samples.

Results

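The genes described here are the protein-coding genes expressed in wild-type medaka (Oryzias latipes) cells that carry the col10a1:nlGFP reporter, taken as those with at least 1 FPKM (fragments counted on a gene, divided by its length and by the size of the library) in each of 3 wild-type libraries. There were 11155 such genes, 47.3% of the 23600 protein-coding genes and part of 25689 rows in the deposited table. The study sequenced RNA from reporter cells of heterozygous col10a1 mutants and of wild-type siblings, and 3 of its 5 libraries, all wild type, are described. The fish were of the Cab strain, had the genotype col10a1wt/wt, col10a1:nlGFP+/+ and were kept at 30 °C until 10 days post fertilization. Every library therefore carries the reporter on both alleles, a green fluorescent protein named after the col10a1 gene, and the series calls the 3 libraries biological replicates. The labels name the cells chondrocytes and osteoblast progenitors. The sources used here do not give how the reporter cells were collected or how many fish went into a library.

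Recovered reads numbered 24791662, 27994446 and 28012092 in wild-type libraries 1, 2 and 3, so that 3 reads on 1 kb of gene length correspond to 0.116, 0.102 and 0.0990 FPKM. At 1 FPKM or more there were 12347, 12638 and 12317 protein-coding genes per library. A further 1217 genes passed in 2 of the libraries, 1403 in 1 and 9825 in none, of which 3009 were listed at 0 in all 3. The minimum divided genes of nearly equal level: dot1l, a histone methyltransferase gene, was inside with a mean of 1.38 FPKM and its lowest library at the minimum, and limch1b was outside with 0.998, 2.54 and 1.55 FPKM. The expressed genes had a median of 7.58 FPKM (interquartile range 3.41 to 20.4), against 1.25 FPKM over all protein-coding genes. Of the expressed genes, 4628 averaged at least 10 FPKM, 632 at least 100, 56 at least 1000 and 2 at least 10000.

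Type X collagen is a short-chain network collagen, known in tetrapods as the product of hypertrophic chondrocytes, the enlarged cells at the end of cartilage growth whose matrix is then mineralized. In teleost fish col10a1 is also transcribed in osteoblast precursors that lay down bone without a cartilage model, and fluorescent reporters of the gene are used to follow them. Osteoblasts are recognised by the transcription factors Runx2 and Sp7 and by a matrix of type I collagen, Sparc and mineral-binding proteins, whereas immature chondrocytes are recognised by Sox9, type II collagen, aggrecan and matrilins.

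All of the 4 markers named for these cells were expressed, at very different levels. The type X collagen gene col10a1a had 5384, 7272 and 6781 FPKM in libraries 1, 2 and 3 (mean 6479 ± 979.7, SD, n = 3) and was the 8th most abundant gene. It was lowest in library 1, where its rank by mean moved up to 5th when that library was left out. The gene for Sparc, a collagen-binding and calcium-binding matrix protein, had 6937, 6693 and 6969 FPKM (6866 ± 151) and ranked 7th, and its 3 values lay closer together than those of col10a1a. The osteoblast factor gene sp7 had 193, 279 and 262 FPKM (245 ± 45.4) and ranked 228th. The cartilage matrix gene matn1 had 123, 150.4 and 97.3 FPKM (124 ± 26.5) and ranked 506th. These levels are averages over all cells of a library, in which fewer cells of a type and less RNA per cell cannot be told apart. In the coordinates of the deposited table, for which the sources used here give no genome build, col10a1a lies on the plus strand of chromosome 22 from 8040396 to 8045500, sparc on chromosome 10 from 28972501 to 28985300, sp7 on chromosome 5 from 10479246 to 10483042 and matn1 on chromosome 11 from 21862964 to 21870580. The RNA of the reporter itself was not analysed here.

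The most abundant genes included genes for proteins of blood plasma, of the mitochondrial genome and of bone and its mineral, as well as ependymin-like genes. The first place went to apoa1b, which encodes apolipoprotein A-I of high-density lipoprotein, with 36657, 28251 and 28834 FPKM (31247 ± 4694). It alone held 6.34% of the summed FPKM of expressed genes. The mitochondrial cytochrome oxidase genes COX3 (16594, 11011 and 8888 FPKM) and COX2 (12570.0, 7765 and 6738 FPKM) came next, both highest in library 1. Ranks 4 to 6 were held by apoa2, an apolipoprotein gene, with 7055 ± 1009 FPKM, by the mitochondrial cytochrome b gene CYTB with 7008 ± 1328 FPKM, and by serpina1l, described as an alpha-1-antitrypsin homolog, with 6988 ± 320.1 FPKM. The bone and cartilage genes sparc and col10a1a followed directly, and phospho1, whose product releases phosphate inside matrix vesicles at the start of mineralization, was 14th with 4894, 5251 and 5369 FPKM (5171 ± 247).

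Further plasma or liver genes among the 30 most abundant included fabp10a, the liver-type fatty acid-binding protein gene (7002, 5261 and 4795 FPKM, 12th), and tfa for transferrin (4873, 6766 and 5287 FPKM, 13th). They also included a betaine-homocysteine methyltransferase gene with the identifier ENSORLG00000003310 (3813 ± 362 FPKM), kng1 for kininogen (3409 ± 325 FPKM) and fgb for the fibrinogen beta chain (2949 ± 449 FPKM). The hemopexin genes wap65-like (2739 ± 255 FPKM) and hpx (2212 ± 87.0 FPKM) and a selenoprotein P gene, ENSORLG00000023578 (2396 ± 319.9 FPKM), were among them as well. Ependymins are secreted glycoproteins first described in fish brain fluid, and 3 genes described as ependymin or ependymin-2 stood at ranks 9, 15 and 17. They had 6446 ± 729 FPKM (ENSORLG00000012350), 4738 ± 46.2 FPKM (ENSORLG00000025308) and 3942 ± 141 FPKM (ENSORLG00000011204), and the second of them had the smallest relative spread of the 30 genes, with 4779.8, 4747 and 4688 FPKM. The remaining places were taken by COX1 (6261 ± 719.6 FPKM), a gene described as a LEG1 homolog (ENSORLG00000018051, 5981 ± 136 FPKM), the prothymosin gene ptmab (3479 ± 101 FPKM), the translation elongation factor gene eef1a (2803 ± 155 FPKM), ppdpfb (2608 ± 507 FPKM), si:ch211-76l23.4 (2278 ± 204 FPKM), mibp2, described as nicotinamide riboside kinase 2 (2047 ± 379 FPKM), ENSORLG00000030554 (4442 ± 1041 FPKM) and ENSORLG00000024611 (2157 ± 124 FPKM), the last pair without a description. A type I keratin gene, ENSORLG00000012618, ranked 29th with 3438, 2235 and 712 FPKM, so its highest value was 4.83 times its lowest, the largest ratio among the 30.

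**Figure D1:**
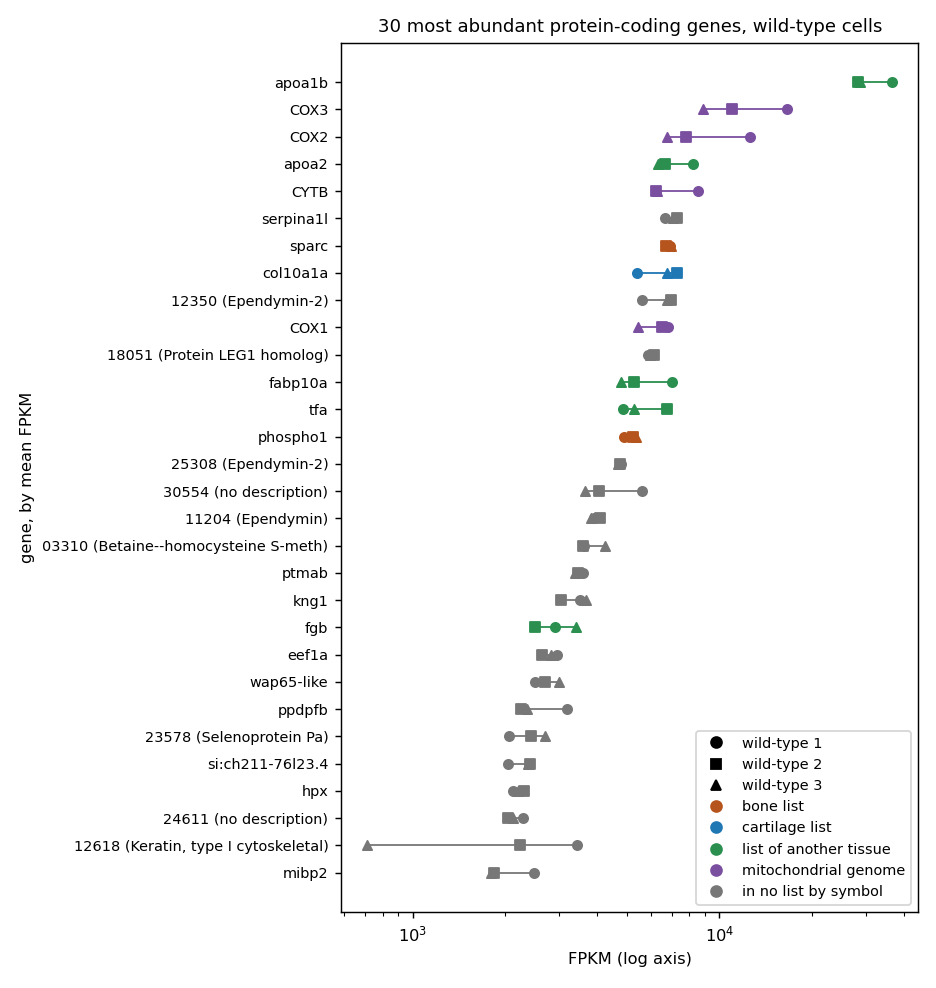
FPKM (log axis) of the 30 most abundant protein-coding genes in wild-type libraries 1, 2 and 3 (symbols), ordered by mean, with a line from the lowest to the highest library and colours for the gene list that holds the gene by symbol. Genes with no symbol are given by the last digits of their identifier and their description. apoa1b stands apart from the rest, sparc and col10a1a lie among plasma and mitochondrial genes, and the keratin gene near the bottom has the widest line.

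The order within this group was in part loose. Of the 29 pairs of neighbours in the order, 27 overlapped in their range over the 3 libraries, and 7 kept their order in all 3. Over all expressed genes 11152 of 11154 pairs of neighbours overlapped and 11 kept their order, so overlap is not particular to this group. The 2 pairs without overlap were apoa1b over COX3 and phospho1 over the ependymin-2 gene ENSORLG00000025308. The 10 most abundant genes held 20.4 ± 1.85% of the summed FPKM, the 100 most abundant 48.4 ± 1.74% and the 1000 most abundant 75.9 ± 1.48% (SD, n = 3), each highest in library 1 (22.5%, 50.4% and 77.7%). The 30 most abundant genes were short, with a median gene length of 1465 bp against 2723 bp over all expressed genes, and 9 of them had no symbol.

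Genes of bone matrix had the highest summed level of the skeletal lists. Most of that sum came from sparc, on which the first place of the list rests. Of 10 osteoblast matrix genes matched in the table, 9 were expressed, and their summed level was 9659, 10166 and 10045 FPKM in libraries 1, 2 and 3, or between 1.88% and 2.11% of all. Counts of expressed members, here and in the lists below, stand beside 47.3% over all protein-coding genes. The share is higher over genes with a symbol, from which the lists were matched. The matched osteoblast matrix genes had a median of 223 FPKM, against 1.25 FPKM over all protein-coding genes. After sparc came ifitm5, an osteoblast membrane protein gene, with 1234, 1339 and 1333 FPKM (rank 43), and spp1, which encodes the mineral-binding phosphoprotein osteopontin, with 767, 993 and 874 FPKM (rank 61). The type I collagen chains col1a2 and col1a1b had 342, 530.2 and 392 FPKM and 320.3, 529 and 402 FPKM, lowest in library 1 and highest in library 2 like col10a1a. Periostin, a matrix protein of bone membranes, was at 21.0, 35.6 and 29.4 FPKM for the postn gene on chromosome 13, while a second gene with the symbol postn on chromosome 14 was below the minimum in library 2 (1.51, 0.992 and 2.31 FPKM).

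All 7 mineralization genes were expressed, with summed levels of 5859, 6633 and 6694 FPKM. Beside phospho1, the channel gene panx3, known from osteoblasts and hypertrophic chondrocytes, had 819.6, 1178 and 1161 FPKM (rank 53). The gene phex, whose protease restrains the phosphate hormone Fgf23, had 102, 147 and 111 FPKM. The gene for tissue-nonspecific alkaline phosphatase, alpl, which frees phosphate by removing the inhibitor pyrophosphate, was far lower at 12.5, 14.2 and 13.5 FPKM (rank 3804), and enpp1, which makes pyrophosphate, averaged 31.1 ± 5.96 FPKM. The pyrophosphate exporter gene ankha (3.38, 2.46 and 6.01 FPKM) and the phosphate transporter gene slc20a2 (2.83, 2.66 and 1.79 FPKM) were below the median of expressed genes.

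The osteoblast transcription factor list had all of its 11 matched genes expressed, at 872.7, 937.9 and 958.2 FPKM in sum. The homeobox gene dlx3b (172, 202 and 186 FPKM), twist1 (138 ± 20.7 FPKM) and xbp1, the secretory stress factor gene (119.5, 120.3 and 113 FPKM), followed sp7, ahead of dlx5a (62.8 ± 8.70 FPKM) and dlx4b (57.3 ± 7.84 FPKM). The gene runx2, which acts before sp7 in bone formation, had 16.7, 25.6 and 22.8 FPKM (rank 2663), below the related gene runx3 at 41.5, 68.2 and 60.4 FPKM (rank 1137). The ranges of runx2, runx3 and sp7 over the libraries did not overlap. The lowest member of this list was msx1a (1.88, 2.99 and 1.41 FPKM).

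Some bone genes had no symbol of their own in the table and were found by their description after the values had been seen. A gene described as osteocalcin 2 (ENSORLG00000025538), a calcium-binding protein of mineralized bone, had 552, 429 and 379.8 FPKM and ranked 123rd. A further type I collagen chain under the symbol col1 had 431, 655 and 505 FPKM and ranked 94th. The gene described as Matrix Gla protein (ENSORLG00000026788), an inhibitor of calcification, had 134, 79.7 and 73.1 FPKM. The osteocalcin and Matrix Gla genes were highest in library 1, the library in which the collagens were lowest.

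Genes of other bone cells were lower. The osteocyte product sost, a Wnt antagonist, had 21.0, 10.3 and 10.9 FPKM, and fgf23 was not expressed by the minimum, with 0.682, 0.474 and 3.92 FPKM from 14, 11 and 94 reads. Of 7 osteoclast genes 4 were expressed, beside 47.3% of all protein-coding genes and a higher share of those with a symbol. They were ctsk for the bone-resorbing protease cathepsin K (69.2, 69.4 and 80.7 FPKM), mmp9 (13.1, 50.3 and 59.0 FPKM), tnfrsf11a for the receptor of the osteoclast signal RANKL (27.9, 41.4 and 30.0 FPKM) and tcirg1a (2.55 ± 0.534 FPKM). The osteoclast fusion gene DCSTAMP was listed at 0 in all 3 libraries, and acp5a, for tartrate-resistant acid phosphatase, had 2.44, 0.446 and 2.66 FPKM.

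Among cartilage genes, the hypertrophic cartilage list stood above the cartilage matrix list in sum and in median of matched genes (47.7 against 10.0 FPKM). The former list includes col10a1a, after which the reporter of these cells is named. In teleosts col10a1 is also transcribed in osteoblast precursors, so the sum of this list is no measure of hypertrophic cartilage alone. The 8 matched genes of hypertrophic cartilage, of which 7 were expressed, summed to 6124, 8577 and 7772 FPKM, most of it from col10a1a. The second type X collagen gene, col10a1b, had 374, 657 and 461 FPKM and ranked 100th, and reads that fit both collagen copies could not be told apart. The ectonucleotidase gene entpd5a, needed for skeletal mineralization in zebrafish, had 273, 513 and 419 FPKM and ranked 144th. All 3 were lowest in library 1 and highest in library 2. They were followed by runx3 and by mef2cb, a factor gene of chondrocyte hypertrophy (40.3, 44.7 and 31.2 FPKM), and pth1r, the receptor gene for parathyroid hormone-related peptide, had 7.97, 16.3 and 10.7 FPKM. The collagenase gene mmp13b did not pass the minimum and varied most, with 0.490, 1.37 and 5.58 FPKM. Of the pair of genes described as Indian hedgehog B, the growth signal of prehypertrophic cartilage, ENSORLG00000016167 had 9.76, 16.9 and 13.8 FPKM and ENSORLG00000001666 had 4.43, 6.97 and 5.57 FPKM.

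The cartilage matrix list had 19 of 24 matched genes expressed, with summed levels of 514, 622.5 and 525 FPKM, 0.0999%, 0.129% and 0.110% of all. Its highest members after matn1 were the leucine-rich protein gene chad (78.1, 84.9 and 67.6 FPKM), the link protein genes hapln1b (55.1, 75.4 and 82.2 FPKM) and hapln1a (27.3, 44.5 and 60.1 FPKM), which tie aggrecan to hyaluronan, cilp (42.7 ± 1.12 FPKM) and the anti-angiogenic gene cnmd (42.2, 32.7 and 34.2 FPKM). A second gene with the symbol cnmd was listed at 0 in all 3 libraries. The minor cartilage collagens col11a2 (35.1 ± 4.60 FPKM), col9a1a (21.8 ± 5.63 FPKM) and col9a2 (21.3 ± 4.36 FPKM) were above the main one, type II collagen, for which 2 genes share the symbol col2a1a. That on chromosome 7 averaged 15.4 ± 3.69 FPKM (rank 3446), overlapping in range with col9a1a and col9a2, and that on chromosome 5 had 6.27, 6.54 and 6.93 FPKM (rank 6030). The aggrecan gene acanb had 5.98, 5.66 and 5.87 FPKM and ranked 6456th, below the median of expressed genes. The genes matn3a (0.702 ± 0.216 FPKM), ucmaa (0.156 ± 0.0433 FPKM) and ucmab (0.126, 0.0372 and 0 FPKM) did not pass the minimum.

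All 5 matched chondrocyte transcription factors were expressed. barx1, a homeobox gene of jaw cartilage, led them with 208, 229.9 and 194 FPKM and ranked 264th, its range overlapping that of sp7. The chondrocyte master regulator gene sox9 had 9.22, 10.1 and 12.5 FPKM (rank 4473), its partner sox5 had 4.40, 5.24 and 5.05 FPKM, and trps1 and sox8 averaged 2.52 FPKM each.

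The expressed connective tissue, signalling and secretory genes had medians of 8.23 FPKM (tendon and fibroblast), 10.1 FPKM (signalling ligands), 20.3 FPKM (collagen assembly) and 30.0 FPKM (endoplasmic reticulum), against 7.58 FPKM over all expressed genes. Of 19 tendon and fibroblast genes 17 were expressed, led by prrx1b, a mesenchymal homeobox gene (58.7, 64.9 and 77.8 FPKM), the proteoglycan genes dcn (54.1 ± 6.93 FPKM) and fmoda (35.3 ± 7.22 FPKM), fap (30.8 ± 6.91 FPKM), the tendon factor gene scxa (20.9 ± 4.56 FPKM) and tnmd (14.1 ± 1.59 FPKM). Of 27 skeletal signalling ligand genes 18 were expressed, and members of the bone morphogenetic protein family, which induce bone and cartilage, led them: bmp8a had 131, 193 and 144 FPKM, bmp2 had 110.1, 122 and 133 FPKM, and bmp4 had 72.7, 94.7 and 100.1 FPKM. They were followed by tgfb3 (53.7 ± 3.64 FPKM), igf2b (32.9 ± 3.53 FPKM) and wnt11 (30.6 ± 8.84 FPKM), while igf1 had 0, 0 and 0.165 FPKM. For collagen assembly 24 of 26 genes were expressed: the cyclophilin B gene ppib (185 ± 11.6 FPKM), the crosslinking oxidase gene loxa (127, 156 and 139.5 FPKM), the collagen chaperone gene serpinh1b (93.8, 109.9 and 128 FPKM), the lysyl hydroxylase gene plod3 (67.5 ± 14.5 FPKM), the coat protein gene sec23a (65.4 ± 18.4 FPKM) and crtap (49.9 ± 1.34 FPKM) were the highest. Of 16 genes of endoplasmic reticulum folding and stress 12 were expressed, the highest being xbp1, canx for calnexin (83.5 ± 9.42 FPKM), atf4 (80.6 ± 7.08 FPKM), dnajc3a (37.3 ± 3.71 FPKM), pdia6 (35.8 ± 3.95 FPKM) and hsp90b1 (29.3, 42.5 and 27.3 FPKM). The common chaperone gene hspa5 was listed at 0, 0 and 0.0227 FPKM, and pdia4 and sdf2l1 were listed at 0 in all 3 libraries. Since secretory cells in general use these genes, the listed zeros are given as they stand.

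The deposited table assigns a transcription factor family to 983 genes, of which 541, or 55.0%, were expressed. Genes without such an entry, junbb, jun and barx1 among them, are not in the order that follows. The highest was ybx1, a cold-shock domain protein that binds RNA as well as DNA, with 1027, 1044 and 953 FPKM, then hmgb1a, a high-mobility-group chromatin protein gene, with 455, 443 and 784 FPKM. They were followed by id1 (356, 254 and 361 FPKM), klf9 (303, 305 and 288 FPKM) and hmgb2a (275, 256 and 280.1 FPKM). The first of these is a target gene of bone morphogenetic protein signalling and is described as a DNA-binding protein inhibitor. The sixth place in this order was held by sp7, ahead of a gene described as early growth response 1 (ENSORLG00000000766; 174, 159 and 241 FPKM), dlx3b, nfil3-6 (149 ± 29.8 FPKM) and twist1. The liver and fat factor gene cebpa (118, 126 and 159 FPKM), the Notch target hes1 (122 ± 18.2 FPKM) and a second Twist gene, ENSORLG00000004012 (102 ± 8.64 FPKM), came next. The latter is described as Twist-related protein 1, whereas the gene with the symbol twist1 is described as Twist-related protein 2. The genes foxc1 (94.3 ± 17.1 FPKM) and cebpb (76.0 ± 6.38 FPKM) completed the first 15. Of the 14 pairs of neighbours in this order 10 overlapped in range and 6 kept their order in all 3 libraries. Over all expressed genes 11152 of 11154 pairs of adjacent ranks overlapped and 11 kept their order. Neighbouring transcription factors lie further apart in that order, so these shares are no baseline for them. By family, all 12 genes of the MH1 (Smad-type) family and 40 of 49 HMG genes were expressed, as were 62 of 150 homeobox genes (41.3%) and 2 of 16 Pou genes (12.5%). The bHLH genes (58 of 100) and C2H2 zinc-finger genes (111 of 210) were near the share of all families, and no difference between families was tested.

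**Figure D2:**
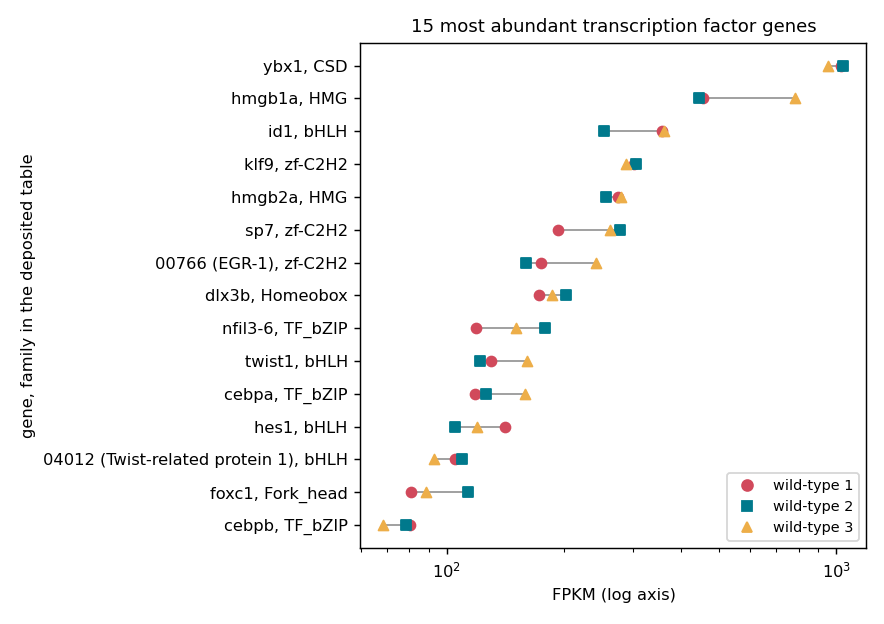
FPKM (log axis) of the 15 most abundant genes with a transcription factor family in the deposited table, in wild-type libraries 1, 2 and 3 (symbols), with a line from the lowest to the highest library. ybx1 stands apart at the top, sp7 is 6th with 193, 279 and 262 FPKM, and most neighbours overlap.

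Genes of tissues outside the skeleton were also expressed, and those of the liver were more abundant in sum than the skeletal lists. Of 22 liver and intestine genes matched by symbol 19 were expressed, 8 of them among the 100 most abundant genes. They summed to 65338, 54213 and 53957 FPKM, or 12.7%, 11.2% and 11.4% of all, with a median of 105 FPKM over the matched genes. Besides apoa1b, apoa2, fabp10a, tfa and fgb the highest was apoeb, an apolipoprotein E gene, with 2099, 1771 and 2264 FPKM. A further 15 of 26 genes chosen by their description as liver products were expressed and added 24662, 25720 and 26926 FPKM. The digestive enzyme list of the exocrine pancreas had 11 of 15 genes expressed, with sums of 445.5, 586 and 397 FPKM. It was led by the trypsin gene prss1 (205, 262 and 190.4 FPKM), 2 elastase genes under the symbol CELA1 (40.8 ± 12.9 and 34.5 ± 12.9 FPKM), ctrb1 (35.2 ± 5.41 FPKM), ctrl (26.5 to 39.7 FPKM) and cpb1 (30.3 ± 4.22 FPKM). The pancreatic regulator gene ptf1a and a further CELA1 gene were listed at 0 in all 3 libraries, and the insulin gene ins had 8, 9 and 8 reads (0.350 ± 0.0304 FPKM).

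Of 20 epidermis genes matched by symbol 15 were expressed, with sums of 2247, 2428 and 1523 FPKM. A further 7 of 11 genes chosen by their description were expressed and added more, 5032, 3812 and 1912 FPKM, highest in library 1. The keratin gene krt5 had 992, 958 and 219 FPKM, lowest in library 3 like the keratin gene ENSORLG00000012618, whereas anxa1 (633, 748 and 729 FPKM) and krt8 (307, 416 and 320.3 FPKM) were not lowest there. The epithelial adhesion gene epcam had 154, 120.2 and 87.7 FPKM, krt4 had 39.5, 62.3 and 65.9 FPKM and cyt1 had 41.5 ± 9.10 FPKM. The basal epidermis regulator gene tp63 averaged 1.34 ± 0.267 FPKM, and cldni was listed at 0. Of 29 skeletal muscle genes 21 were expressed, with sums of 2457, 2012 and 1667 FPKM. The contractile genes acta1 (703, 619 and 508 FPKM), myl1 (329, 314 and 267 FPKM), mylpfa (238, 211 and 174 FPKM), mylz3 (212, 169 and 131 FPKM), tpm2 (158, 155 and 108 FPKM) and TNNT3 (158, 111 and 88.4 FPKM) all had their highest value in library 1 and their lowest in library 3. The muscle regulator gene myog, tnnt2a and 1 of 2 genes named TNNI2 were listed at 0.

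Genes of neural, pigment, blood, vascular and other cell types were lower in sum than the liver, epidermis and muscle lists. Of the matched genes, 12 of 30 neuronal, 9 of 18 glial, 7 of 18 pigment cell, 8 of 17 leukocyte, 2 of 7 erythrocyte, 4 of 16 endothelial, 6 of 16 retina and lens, 4 of 7 notochord and 3 of 15 kidney and ionocyte genes were expressed. The share expressed over all protein-coding genes is 47.3%, and the glial, leukocyte and notochord lists lay near or above it. That share counts genes without a symbol, which the lists could not match. They were 18.3% of the expressed and 51.8% of the other protein-coding genes. The share over genes with a symbol is therefore higher, so a list near or above 47.3% is not shown to lie above it. The lists were not compared with that share. The highest were stmn1b (101 ± 12.3 FPKM) and sncb (41.0 ± 5.79 FPKM) for neurons, the myelin basic protein genes mbpb (98.9, 95.3 and 103 FPKM) and mbpa (42.8 ± 8.96 FPKM) and the glutamine synthetase gene glula (70.9 ± 5.72 FPKM) for glia, and the pteridine synthesis gene gch2 (145 ± 8.09 FPKM) for pigment cells. For leukocytes they were the lysozyme gene lyz (94.4 ± 6.51 FPKM) and the lysosomal protease gene lgmn (58.4 ± 6.89 FPKM), for erythrocytes rhag (84.6 ± 17.5 FPKM), and for endothelium cldn5a (32.5 ± 5.04 FPKM). Some other markers of these cells, named after their values were seen, were low: the glial gene gfap had 0.146, 0.436 and 0.726 FPKM, the leukocyte gene ptprc 0.272, 0.153 and 0.774 FPKM, the endothelial genes pecam1 0, 0.207 and 0 FPKM and cdh5 0, 0 and 0.155 FPKM, and flt1 and cldn5b were listed at 0 in all 3 libraries. So were the neuronal genes NEFL and slc17a7a, the chemokine receptor gene cxcr4a and the photoreceptor genes rcvrna and guca1b. Genes that most cells use are also at or near 0 in these libraries, such as hspa5, so a listed 0 is not evidence that a gene was silent. Summed levels were 237, 230.3 and 201 FPKM for neurons, 285, 273.5 and 287.5 FPKM for glia, 185, 207 and 183 FPKM for pigment cells, 201, 209.8 and 205 FPKM for leukocytes and 40.0, 42.2 and 49.8 FPKM for endothelium. They were 112, 86.7 and 77.2 FPKM for erythrocytes, 61.2, 64.1 and 63.7 FPKM for retina and lens, 38.9, 46.8 and 35.4 FPKM for notochord and 12.0, 11.7 and 22.5 FPKM for kidney and ionocytes. Among genes chosen by description after the table had been seen, 7 of 11 for epidermis, 9 of 56 for muscle, 3 of 14 for erythrocytes and 2 of 2 for exocrine pancreas were expressed. Those for erythrocytes summed to 145, 187 and 111 FPKM, more than the erythrocyte list by symbol, in which several globin entries had no match. The part that other cells have in the levels of skeletal genes was not tested.

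**Figure D3:**
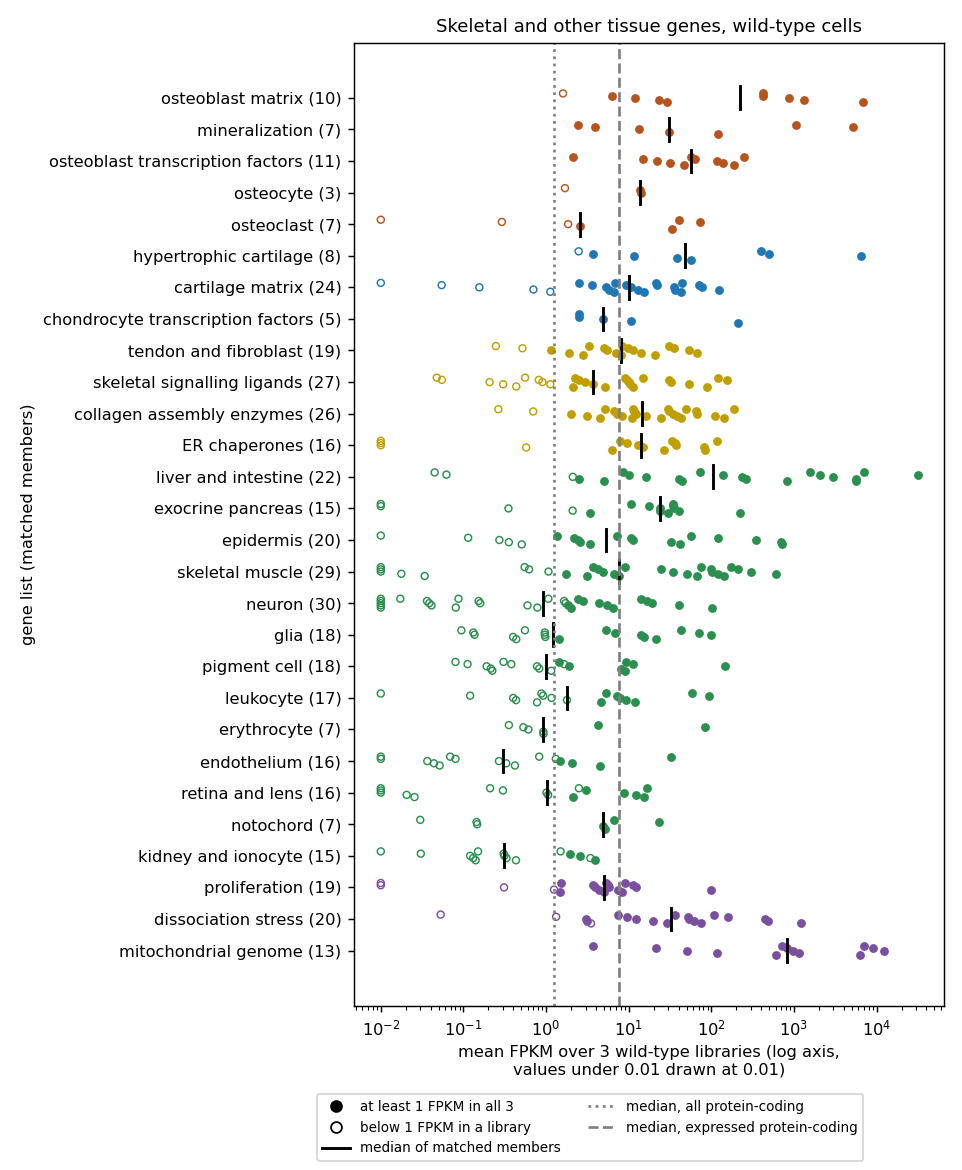
Mean FPKM over 3 wild-type libraries (log axis) of every gene matched in 28 lists of skeletal, other tissue and cell state genes, with the number matched in parentheses. Filled points are expressed genes, open points fell below 1 FPKM in a library, black bars are medians of the matched genes and vertical lines the medians of all (1.25 FPKM) and of expressed (7.58 FPKM) protein-coding genes. The bars for osteoblast matrix (223 FPKM), liver and intestine (105 FPKM) and the mitochondrial genome lie far to the right. Those for endothelium and kidney lie left of both lines, as do, less far, those for neuron, erythrocyte, pigment cell, retina and lens, and glia.

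Genes of cell division and of the early stress response differed in level. Of 19 proliferation genes 15 were expressed with a median of 5.63 FPKM, led by pcna, the replication clamp gene (112, 84.2 and 98.1 FPKM). They continued with mcm2 (12.1 ± 2.58 FPKM), mcm7 (11.1 ± 1.15 FPKM), RRM2 (6.85 to 10.9 FPKM), mcm6 (8.35 ± 1.71 FPKM) and ccnb1 (7.43 ± 1.55 FPKM), while cdk1 and tyms were listed at 0 in all 3 libraries, which the table alone cannot tell from reads left uncounted. Of 20 genes that tissue dissociation is known to induce 17 were expressed, with a median of 51.5 FPKM and sums of 2763, 2915 and 2631 FPKM. Over all protein-coding genes 47.3% were expressed, and those expressed had a median of 7.58 FPKM. The AP-1 factor gene junbb ranked 47th with 1219, 1290.3 and 1129 FPKM, the cytokine signal suppressor gene socs3 113th with 503, 461 and 474 FPKM and jun 128th with 384, 515 and 435 FPKM. They were followed by ier2b (160.0 ± 7.74 FPKM), egr1 (106 ± 4.34 FPKM) and junba (74.5 ± 16.9 FPKM). The gene without a symbol described as early growth response 1, ENSORLG00000000766, was higher than egr1 (174, 159 and 241 FPKM) but is not in this list. All 13 protein-coding genes of the mitochondrial genome were expressed, 9 of them among the 100 most abundant. They held 9.72%, 7.35% and 6.56% of the summed FPKM. Their share of the reads of expressed genes, not divided by gene length, was lower, at 5.24%, 3.89% and 3.54%.

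Across the 11155 genes, which are not independent replicates, Pearson's r of log2(FPKM + 1) was 0.97 for each pair of libraries, Spearman's rho was 0.949, 0.951 and 0.943, for libraries 1 and 2, 1 and 3, and 2 and 3, and between 75.9% and 77.9% of genes agreed within 1.5-fold. The 100 most abundant genes shared 90, 87 and 89 members in the same pairs. The median SD over the libraries was 0.23 on the log2(FPKM + 1) scale and 0.28 on the log2(FPKM) scale, and the part of it due to read counting was 0.05 on the latter scale. For 1549 genes, 13.9% of those expressed, the highest library was at least 2 times the lowest. A ratio of at least 2 was found in 15.6% of the genes with 1 to 2 FPKM, in 25.7% of those with 2 to 5 FPKM and in 1.79% (1 of 56) of those with at least 1000 FPKM. The minimum of 1 FPKM in each library leaves out genes with a low library. It therefore limits the ratio of genes near it. In 279 genes the ratio was at least 3 and in 41 at least 5. The highest value lay in library 1 for 377 of the 1549 genes, in library 2 for 723 and in library 3 for 449, and the lowest in library 1 for 540, in library 2 for 388 and in library 3 for 621. Over all 11155 expressed genes the highest value lay in libraries 1, 2 and 3 for 2856, 4596 and 3703 genes and the lowest for 4608, 2926 and 3621 genes.

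**Figure D4:**
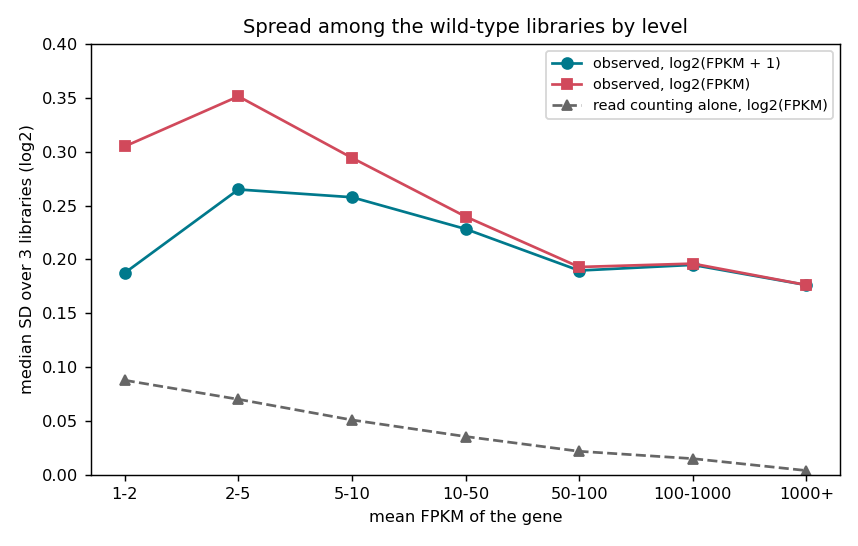
Median SD over the 3 wild-type libraries (log2 units) of expressed genes grouped by mean FPKM, as observed with and without 1 FPKM added, beside the SD that read counting alone would give. The observed lines stay above the counting line at every level, and without 1 FPKM added the spread is largest at 2 to 5 FPKM. The minimum of 1 FPKM in each library limits the spread of the lowest group, so its place below the next group is set in part by that rule.

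The level of several lists differed between libraries. The median deviation of the expressed hypertrophic cartilage genes from their own mean of 3 libraries was -0.37, 0.29 and -0.06 (log2) in libraries 1, 2 and 3, and that of the osteoblast matrix genes was -0.20, 0.19 and 0.02, while over all expressed genes it was -0.05, 0.05 and 0.00. The genes of the mitochondrial genome had 0.32, -0.09 and -0.24, and those of skeletal muscle 0.20, 0.03 and -0.25. The exocrine pancreas genes (-0.13, 0.33 and -0.29) and the pigment cell genes (-0.30, 0.26 and 0.03) were also highest in library 2. The osteoblast transcription factors had medians of 0.01, 0.03 and 0.00, with a median SD of 0.21 per gene against 0.19 for osteoblast matrix. Whether the makeup of the cells or the handling of the libraries had a part in these shifts was not tested.

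**Figure D5:**
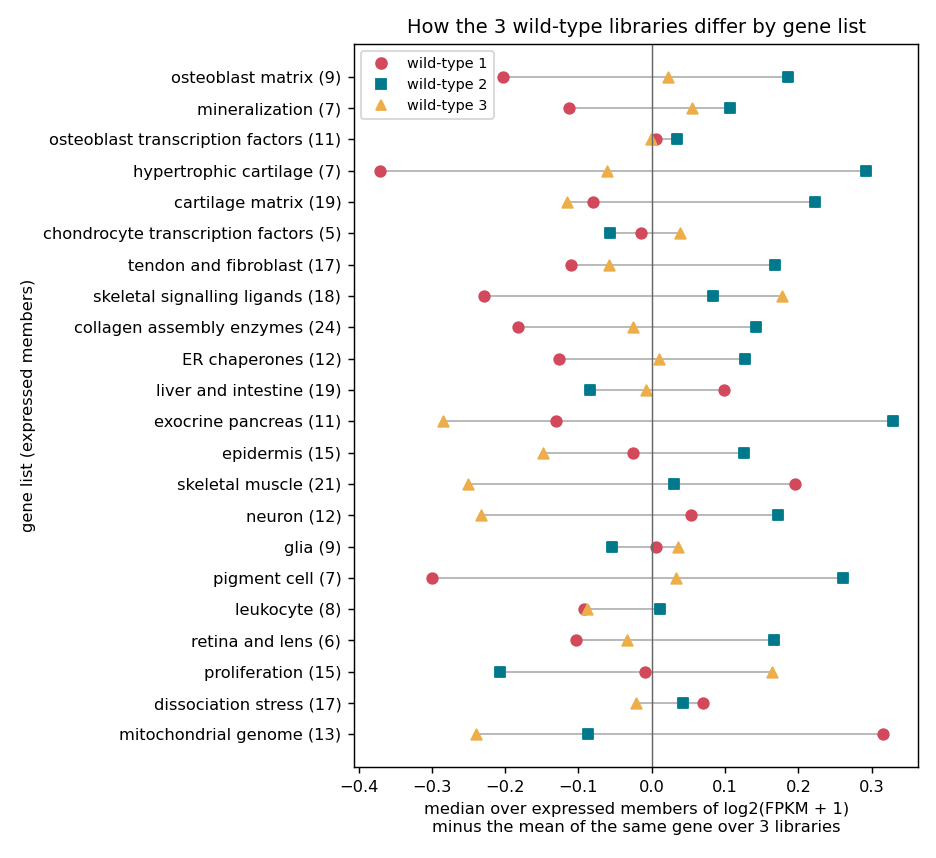
Median over the expressed members of each list (at least 5) of log2(FPKM + 1) minus the mean of the same gene over the 3 libraries, for wild-type libraries 1, 2 and 3 (symbols). Library 1 is low for the hypertrophic cartilage (-0.37) and osteoblast matrix (-0.20) lists and high for mitochondrial (0.32) and muscle (0.20) genes.

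Among genes with a symbol and at least 10 FPKM, those highest in library 1 relative to the mean of the other libraries included the muscle calcium buffer gene pvalb1 (157, 26.1 and 41.2 FPKM), the plasma haptoglobin gene hp (75.2, 17.2 and 27.9 FPKM), the gluconeogenesis gene fbp1a (86.4, 30.1 and 33.0 FPKM), the metallothionein gene mt2 (109.8, 30.6 and 50.6 FPKM) and the sterol synthesis genes hmgcs1 (21.5, 7.49 and 3.31 FPKM) and msmo1 (165, 75.3 and 47.5 FPKM). Hormone-inactivating enzymes were among them as well: DIO3, which inactivates thyroid hormone, had 290, 142 and 87.2 FPKM, and cyp24a1, which breaks down vitamin D, had 190.3, 43.2 and 113 FPKM. The vitamin D activating gene cyp27b1 was instead lowest in library 3, with 30.7, 45.4 and 12.8 FPKM. A more abundant gene with the same description as fbp1a, ENSORLG00000002997, had 1428, 1269 and 1372 FPKM. It has no symbol and so could not be chosen here. The genes lowest in library 1 relative to that mean were apoa4a, mmp9, chia.3, odam, mnep (68.0, 172 and 171 FPKM), vip, C6orf62 and CEL, although apoa4a was lower still in library 2.

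Relative to the mean of the other libraries, library 2 was highest for the pigment gene tyrp1a (7.08, 21.7 and 4.85 FPKM), cplx3b (9.52, 26.9 and 8.94 FPKM), zgc:92137, the lipase gene CEL (6.57, 19.9 and 9.33 FPKM), the epithelial claudin gene cldnb (30.0, 44.8 and 9.72 FPKM), dhrs13b.1, gpr184 and the haemoglobin gene gb on chromosome 8 (8.49, 18.9 and 9.24 FPKM), and lowest for apoa4a, pvalb1, cyp24a1, psme1, hp, mt2, cyb561d2 and tmem17. Of these, pvalb1, hp and mt2 owe the low ratio to their high value in library 1 and apoa4a to its high value in library 3. The gene highest in library 3 by this measure was apoa4a, a lipoprotein gene of the gut, with 2.56, 1.96 and 44.3 FPKM, 19.6 times the mean of the other libraries. Its other high genes were odam (6.43, 10.2 and 28.4 FPKM), chia.3, tmem41b, adh5, hoxc13a, paplna (22.0, 24.0 and 51.6 FPKM) and ankrd34bb. Its low genes were krt5, hmgcs1, cldnb, FABP6, GPX4, tyrp1a, cyp27b1 and the thymosin gene tmsb5 (367, 259 and 107 FPKM). None of the 4 markers of the reporter cells was among the genes so chosen for any library. Since only 8 genes per side and library were taken, this is no measure of the spread of the markers.

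Fewer of the expressed genes than of the other protein-coding genes lacked a symbol, 18.3% against 51.8%. Their median length was 2723 bp against 2262 bp, and length enters FPKM and so the minimum. By chromosome the share expressed ran between 34.4% on chromosome 18 and 52.4% on chromosome 23, and was 13 of 13 on the mitochondrial genome. Chromosome 18 had the lowest share and yet 4 of the 30 most abundant genes. Several very abundant genes lay close together: apoeb, ENSORLG00000030554 and apoa2 on chromosome 16 between 22220054 and 22232863, the 3 ependymin genes on chromosome 18 between 28530018 and 28570130, and the fibrinogen genes fga and fgb on chromosome 18 between 1415816 and 1431800. Less abundant genes that may lie between them were not looked for.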

How the data were processed

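RNA of reporter cells was isolated with a column kit and sequenced as mRNA libraries, per the labels' protocols. HISAT2 2.0.5 (alignment) and featureCounts 1.5.0-p3 (read counting) were used, per the submitters' processing notes. No build, annotation or strandedness is named in these notes, and reads from overlapping, antisense or near-identical genes cannot be separated. The deposited values are FPKM computed by the authors, in a table with gene lengths, coordinates, descriptions and symbols (15595 of 25689 rows), and names were taken from it, since a RefSeq table matched 0 of its identifiers. FPKM times gene length gave whole reads, within 0.02 reads, for 100% of the values. The FPKM denominators were 1.04, 1.05 and 1.08 times the recovered reads, and the basis for this is not stated. Reads carry no molecular identifiers, so values per 3 reads cover counting error only.

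Only the 3 wild-type columns were used, and 2 mutant columns were not analysed. There is no contrast, so no test was made, and levels, ranks by mean FPKM, shares and spreads are descriptions. Groups came from the titles in the labels. The 28 lists (483 entries, of which 117 had no match) went by symbol. Genes and lists were chosen with earlier results of these data known. Genes found by description in 6 further lists, and the mitochondrial list by chromosome, were chosen after seeing the table. Named are the 30 most abundant genes, 15 transcription factors, up to 6 members per list and those listed at 0, and the 8 highest and 8 lowest genes per library with a mean of at least 10 FPKM. Lower list members named beside them, as well as genes named for their place near the minimum, were chosen after their values were seen. Read recovery and the summaries were tested on simulated data. Python 3.11.15, pandas 2.3.3, numpy 2.4.6 and matplotlib 3.10.9 were used. Alternatives were other minimum levels, scalings and pseudocounts, and each library left out in turn.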

Additional observations from a re-analysis of the deposited data

Results flagged for a closer look

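Rows outside the protein-coding class, which the profile above leaves out, also had signal: 499 of 2089 such rows had at least 1 FPKM in all 3 wild-type libraries, above the level that a count of 0 would allow. The 2089 rows held 3.11% of the summed FPKM. The highest mean was 2087 FPKM for ENSORLG00000021751, a ribosomal RNA gene of the mitochondrial genome. Rows for transcribed loci without a reference gene identifier, 1324 in all, made up 447 of the 499. Their highest means were 1629 FPKM for a locus on chromosome 5 and 1045 FPKM for a locus on chromosome 1, both described by an ApoM domain, 1587 FPKM for a second locus on chromosome 1 without a description, and 615 FPKM for a second locus on chromosome 5. The pseudogene row ENSORLG00000001348, described as similar to Mid1-interacting protein 1, averaged 702 FPKM. With 3 libraries in the group, no test for a single outlying library was made.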

How the results depend on the processing

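Of the alternatives to the main counts, levels and shares, 43 kept the value within 1.5 times (counts) or 1 SD (levels and shares) and 21 moved it further. This tally is no measure of stability. Leaving out a library cannot move the mean level of a gene by 1 SD, and in effect not a mean share either. A change of unit counts as a move of the level. The number of expressed genes was 6118 at a minimum of 5 FPKM and 16873 at 1 read or more in each library, and 11516 to 11619 with a library left out. The number of genes with a highest library at least 2 times the lowest was 684 to 864 with a library left out, since fewer libraries are compared, and 131 among genes of at least 10 FPKM in each library. Rescaling to TPM, which changes the unit, gave 12730.4 (col10a1a), 13440.0 (sparc), 481 (sp7) and 242 (matn1). Reads scaled to the same total without dividing by gene length gave 22454.5 for col10a1a, 11618 for sparc, 695 for sp7 and 194 for matn1, and placed col10a1a 2nd and sp7 130th. Shares of the 100 and 1000 most abundant genes were 44.4% and 70.3% of reads, and 45.0% and 74.1% of FPKM without the mitochondrial genome. An alternative added after seeing the data left out that genome and the genes of other tissues matched by symbol. The 10, 100 and 1000 most abundant genes then held 14.1%, 38.5% and 70.7%. Genes of other tissues found by description stayed in, among them liver genes with 5.26% of the summed FPKM of all expressed genes. With a library left out, col10a1a averaged 6082 to 7026 FPKM, sparc 6815 to 6953 FPKM, sp7 227 to 270.3 FPKM and matn1 110.2 to 137 FPKM. At a minimum of 5 FPKM the expressed members of 11 lists fell by more than 1.5 times, for example to 5 of 30 for neurons. No paired analysis was possible because the description covers wild-type libraries only and comes from no test. Depth limits genes near 1 FPKM most, where counting alone gives an SD of 0.09 (log2).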
